A study of Mus musculus with 17 samples.

Results

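The genes described here are the axon guidance genes of the ephrin, Slit and netrin systems, 39 of the 15355 genes in a table of ribosome-bound RNA from the mouse hypothalamus. They were picked by gene symbol. They comprise 8 EphA receptors, 5 EphB receptors, 5 ephrin-A ligands, 3 ephrin-B ligands, 3 Slits, 4 Robo receptors, 3 secreted netrins (Ntn1, Ntn3 and Ntn4), 2 netrin-G proteins, 5 netrin receptors (Dcc and Unc5a to Unc5d) and Draxin. By role, 22 are receptors and 17 are ligands. The study asked how a dam's high-fat diet (HFD) alters the RNA translated in the POMC neurons of the young. All offspring were POMC-RiboTag mice, in which cells that use or have used the Pomc driver carry an HA-tagged ribosomal protein, and RNA was pulled down with the tag from the mediobasal hypothalamus. Dams were put on a 45% fat diet or on standard chow at 6 weeks of age, mated 4 weeks later and kept on the same food to postnatal day 21. The groups were HFD offspring at postnatal day 21 (P21, weaning, 4 libraries), chow offspring at P21 (3 libraries), HFD offspring at postnatal day 0 (P0, birth, 5 libraries) and chow offspring at P0 (5 libraries). Whether each library stands for 1 animal, 1 litter or a pool is not stated in the labels, which name them biological replicates, and p-values measure only the spread among them.

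Growing axons steer by cell-surface and secreted cues. Eph receptors are tyrosine kinases that bind ephrins on a neighbouring cell, EphA mostly the lipid-anchored ephrin-A ligands and EphB mostly the transmembrane ephrin-B ligands, and both partners can signal. Slits are secreted repellents read by Robo receptors. Netrins attract axons through DCC and repel them through UNC5 receptors, and draxin binds both netrin and DCC. In rodents, POMC axons of the arcuate nucleus reach their hypothalamic targets in the first weeks after birth, the interval these libraries span. Several of these genes also serve other tissues: Ephb4 and Robo4 mark blood vessels, for example.

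Values are in the deposited table's scaled CPM-like units, which are counts scaled to each library's effective size. Depth was 22.4 to 37.1 M (mega) reads counted to genes, so 1 read was worth 0.0275 to 0.0460 units and a value of 0 allows up to 0.0826 to 0.138 units (3 reads, counting error only). Pomc, the gene that defines the tagged cells, measured 9818, 8268, 7460.1 and 8528 units in HFD P21 libraries and 4679, 3878 and 12069.6 units in chow P21 libraries. It measured 90.7, 246, 102, 181 and 1057 units in HFD P0 libraries and 146, 224, 657, 891 and 1308 units in chow P0 libraries, so Pomc varied by more than an order of magnitude among newborn libraries. Of the 17 libraries, 3 stood apart from their group in Pomc or Cartpt, namely chow P21 replicate 3, chow P0 replicate 3 and HFD P0 replicate 5, and results are also given without them. Markers of other cells were present throughout: no listed marker of glia, vessels, meninges or progenitors was at 0 in every library of a group. A P21 level that is lower than the P0 level may therefore reflect fewer cells of a type or less RNA per cell, which cannot be told apart in pulled-down tissue RNA.

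Group means per kilobase of exon ran from 0.0231 to 125 units across the 39 genes. Efnb3, which encodes the transmembrane ligand ephrin-B3, was the highest of the 39 in every group. Its level was 63.5 units per kb in HFD P21, 67.2 in chow P21, 118 in HFD P0 and 125 in chow P0. The lipid-anchored ligand gene Efna5 came next at P0, with 18.3 units per kb in HFD and 18.4 in chow offspring. Among receptors Ephb1 was the highest at P0, with 15.4 units per kb in HFD P0 and 14.8 in chow P0. At P21 the netrin receptor gene Unc5a ranked 3 of 39 in HFD offspring (12.3 units per kb) and 2 of 39 in chow offspring (11.2), against 11 of 39 in HFD P0 (6.62) and 8 of 39 in chow P0 (10.3). The lowest of the 39 at P0 were Ntng2, Robo3 and Epha1. At P21 the lowest 3 were Draxin (0.0231 units per kb), Robo3 (0.0303) and Epha1 (0.0643) in HFD offspring, and Epha3 (0.112), Draxin (0.112) and Robo3 (0.138) in chow offspring. Exons of Efna3, Efna4 and Ntng2 share 14.1%, 10.5% and 14.0% of their bases with another annotated gene, so their values are uncertain.

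**Figure D1:**
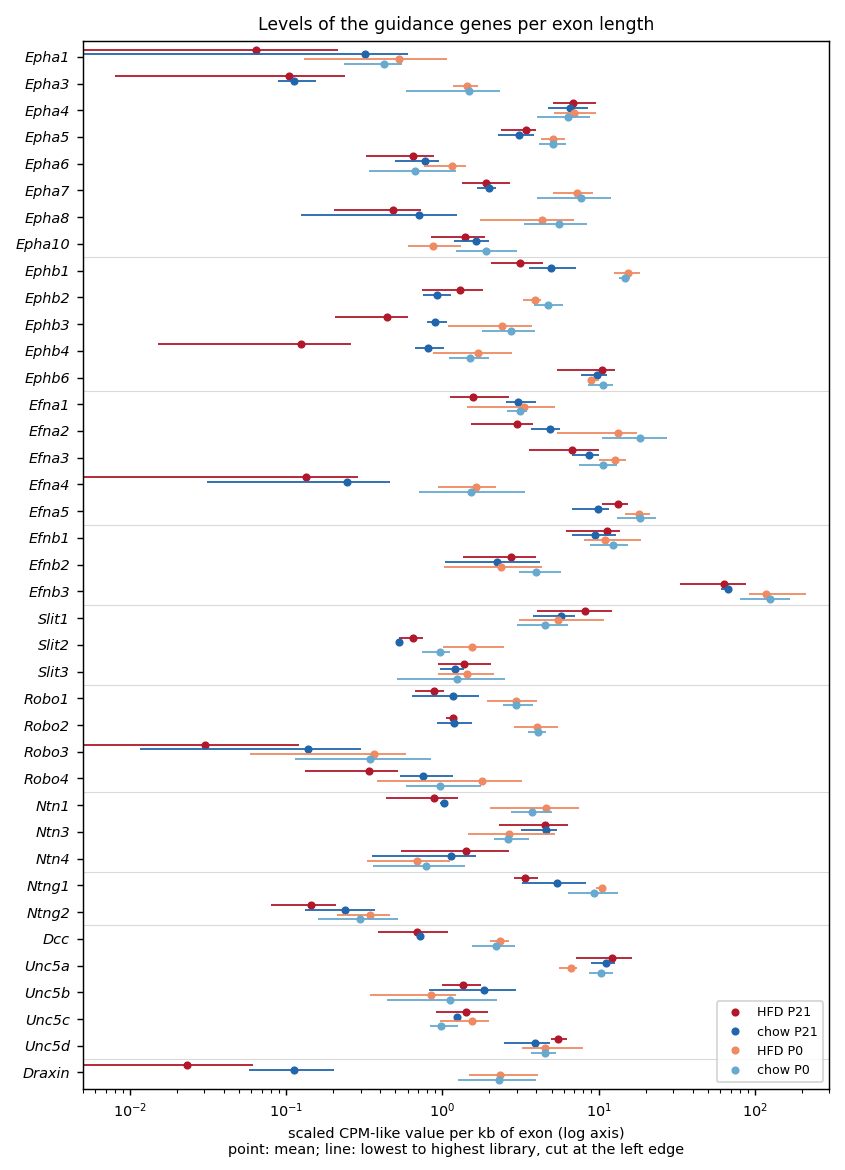
Level of each guidance gene per kilobase of exon (log axis, scaled CPM-like units) in the 4 groups; points are means and lines run between the lowest and highest library. Efnb3 is the highest in every group (63.5 to 125 units per kb), and Draxin lies at 0.0231 in HFD P21 and 0.112 in chow P21.

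The comparison of P21 with P0 addresses how the set changed between birth and weaning, in each diet group on its own. In HFD offspring, 23 of the 39 genes fell and 1 rose past an adjusted p of 0.05 (limma on log2(value + 1), Benjamini-Hochberg over all genes), where 26.2% of all genes tested fell and 24.7% rose. In chow offspring, 19 of the 39 fell and 1 rose, where 17.7% of all genes tested fell and 18.3% rose. The median log2 difference over the 39 was -0.94 in HFD offspring, against -0.05 over all genes tested, and -0.74 in chow offspring, against -0.01 over all genes. In HFD offspring the P21 libraries lay wholly below the P0 libraries for 20 of the 39, a pattern seen in 19.7% of all genes tested. In chow offspring this held for 18 of the 39, and for 17.9% of all genes. No gene of the set had P21 libraries wholly above P0 in either diet group, where 19.0% of all genes did so in HFD and 19.3% in chow offspring. Without the libraries that stood apart, 22 fell and 3 rose in HFD offspring (36 of the 39 tested), and 15 fell and 1 rose in chow offspring. Those fits tested 14118 genes in HFD and 14678 in chow offspring, and the shares of all genes called in them are not given here.

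The decline took in both sides of the signalling pairs. Among the 22 receptors, 14 fell and 1 rose in HFD offspring, and 10 fell in chow offspring. Among the 17 ligands, 9 fell in HFD offspring, and 9 fell and 1 rose in chow offspring. In all, 18 of the 39 genes fell in both diet groups, where 14.1% of all genes tested in both fell in both. These 18 were 78.3% of the set's HFD falls and 94.7% of its chow falls. Over all genes, 1996 fell in both, beside 3729 that fell in HFD and 2582 that fell in chow offspring. The 2 sets of log2 differences, which share no library, had a Pearson r of 0.85 across the 39 genes, against 0.83 across all genes tested in both. The fold changes understate the fall of genes near 0, since 1 unit was added before the log.

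**Figure D2:**
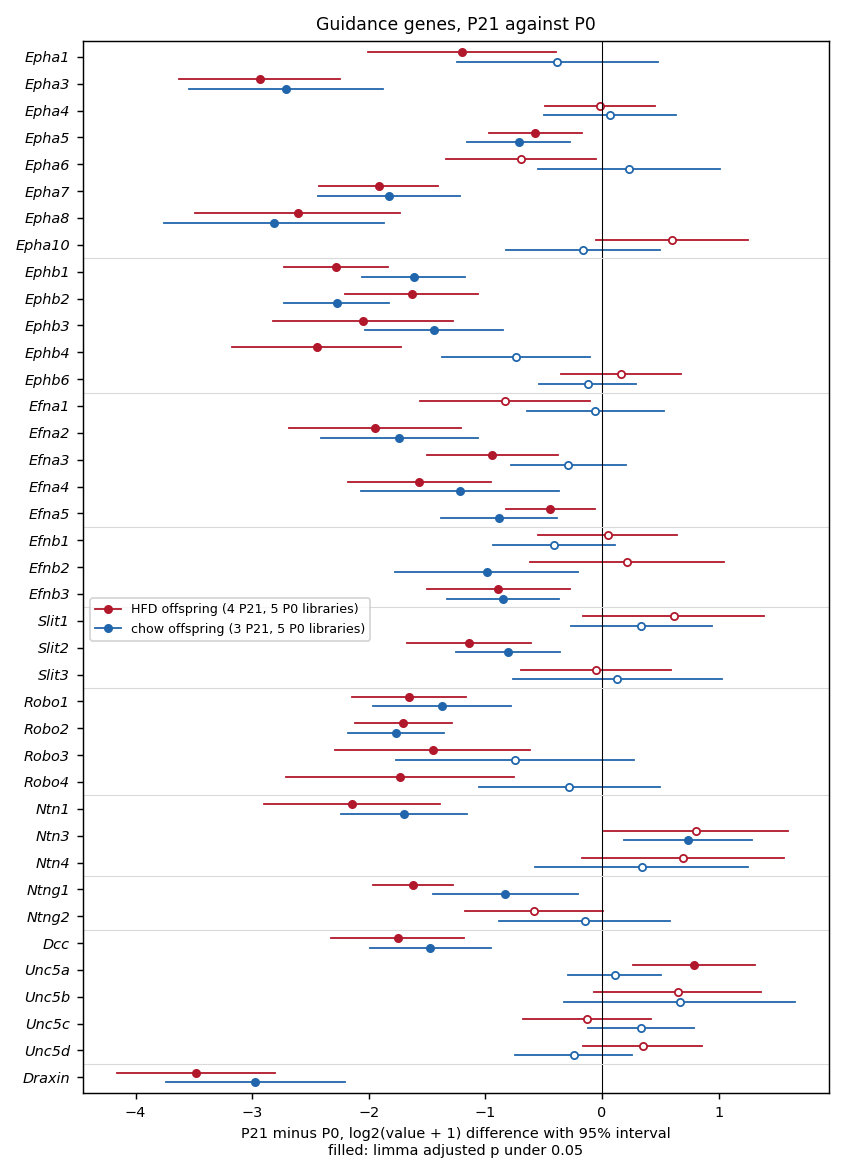
P21 minus P0 difference on the log2(value + 1) scale for each guidance gene, with its 95% interval, in HFD offspring (upper of each pair) and chow offspring (lower); filled points passed an adjusted p of 0.05. Most filled points lie left of 0, led by Draxin (-3.48 in HFD and -2.97 in chow offspring), and only Ntn3 in chow and Unc5a in HFD offspring are filled on the right.

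Other cell markers moved over the same interval, and the shares of all genes called given above apply to them too. The summed level of 5 progenitor and cycling markers was 23.4 to 65.1 units in HFD P21 libraries, against 48.1 to 179 in HFD P0. It was 40.6 to 66.3 in chow P21, against 142 to 198 in chow P0. Of these 5, 3 fell in HFD and 4 in chow offspring. The sum of 11 oligodendrocyte-lineage markers was 4007 to 7316 units in HFD P21, against 335 to 463 in HFD P0, with 8 rising and 1 falling. It was 8238 to 18279 in chow P21, against 437 to 1052 in chow P0, with 9 rising. The sum of 10 POMC-neuron markers was 12817 to 15398 units in HFD P21, against 1666 to 3916 in HFD P0, with 8 rising. In chow offspring it was 8305 to 16546 at P21, against 1618 to 3975 at P0, with 5 rising. Pomc and Cpe made up most of these sums. The highest chow P21 sum was that of replicate 3, with 12069.6 units of Pomc. In that library Cartpt, Tbx3, Isl1, Nkx2-1 and Pcsk1 were the lowest of the chow P21 libraries, and Pcsk2 and Cpe the highest. Among 10 astrocyte, radial glia and tanycyte markers, 5 fell and 3 rose in HFD offspring, and 4 fell and 3 rose in chow offspring. The sum of 5 fibroblast and meningeal markers was 53.6 to 85.9 units in HFD P21, against 142 to 538 in HFD P0, with 4 falling. It was 73.2 to 125 in chow P21, against 99.3 to 494 in chow P0, with 3 falling. Among 9 microglial markers 2 rose in HFD and 7 in chow offspring, and among 12 markers of other hypothalamic neurons 9 rose in HFD and 8 in chow offspring. Of 5 choroid plexus and ependymal markers, 3 fell in HFD offspring, and 1 fell and 2 rose in chow offspring. The sum of 2 anterior pituitary markers was 10.4 to 45.8 units in HFD P21, against 0.03 to 3.36 in HFD P0. It was 9.14 to 33.8 in chow P21, against 0 to 2.42 in chow P0. In HFD offspring 1 of the 2 rose, and in chow offspring the 1 that was tested rose. The part of these shifts in the guidance results was not tested.

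Promoter sequences are shown for Draxin, Ephb2 and Epha3, which are among the genes that fell in both diet groups, and for Unc5a, the gene that rose in HFD offspring. They are the 250 bases upstream of the start in RefSeq (build GRCm38.p6), on the gene's strand, 5′ to 3′, with GGGCGG or its reverse complement CCGCCC, the core of the GC box, in capitals. The windows are chr4:148130699-148130948 (minus strand) for Draxin, chr4:136836013-136836262 (minus) for Ephb2, chr16:63864176-63864425 (minus) for Epha3 and chr13:54949161-54949410 (plus) for Unc5a.
Draxin: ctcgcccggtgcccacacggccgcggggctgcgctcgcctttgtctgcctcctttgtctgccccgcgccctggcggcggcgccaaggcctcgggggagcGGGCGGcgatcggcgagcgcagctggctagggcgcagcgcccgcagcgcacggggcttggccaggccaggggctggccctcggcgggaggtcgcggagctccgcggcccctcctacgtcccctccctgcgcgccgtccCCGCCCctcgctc
Ephb2: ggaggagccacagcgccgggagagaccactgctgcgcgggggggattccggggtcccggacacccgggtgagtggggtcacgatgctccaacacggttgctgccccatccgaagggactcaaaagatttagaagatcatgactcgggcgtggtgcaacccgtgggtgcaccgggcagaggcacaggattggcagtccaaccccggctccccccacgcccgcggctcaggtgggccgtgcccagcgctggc
Epha3: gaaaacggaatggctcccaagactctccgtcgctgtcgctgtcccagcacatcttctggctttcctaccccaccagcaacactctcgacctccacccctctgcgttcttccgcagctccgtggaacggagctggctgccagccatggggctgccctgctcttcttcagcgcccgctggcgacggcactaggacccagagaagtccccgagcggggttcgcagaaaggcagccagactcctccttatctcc
Unc5a: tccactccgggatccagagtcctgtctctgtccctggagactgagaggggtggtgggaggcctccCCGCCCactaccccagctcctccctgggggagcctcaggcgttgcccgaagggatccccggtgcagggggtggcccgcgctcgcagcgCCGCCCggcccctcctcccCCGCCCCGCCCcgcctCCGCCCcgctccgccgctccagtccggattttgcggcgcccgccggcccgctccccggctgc
Draxin held 2 GC-box matches and 36 CpG dinucleotides in this window, Ephb2 held 0 and 20, Epha3 0 and 16, and Unc5a 5 and 25. A pair of the Unc5a matches overlap by a base. Of the 39 genes, 34 have such a window, 1 per gene, and 24 of these (70.6%) held at least 1 match on either strand. The share was 32.7% over all 32851 windows of the RefSeq set. Those windows include non-coding genes and are not limited to genes of the deposited table, so they are an unlike background. The median CpG count was 18 in the 34 windows and 6 in all windows. Among genes that fell in both diet groups the motif was in 9 of 15 windows, and among the others in 15 of 19. The TATA-like letters TATAAA were in 5.88% of the 34 windows and 12.4% of all windows.

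Among the EphA receptors, Epha3, Epha5, Epha7 and Epha8 fell in both diet groups. Epha3, an ephrin-A5 receptor, measured 2.07, 0.36, 1.15 and 0.07 units in HFD P21 libraries, against 14.8, 12.5, 10.2, 11.9 and 13.4 in HFD P0. Chow values were 1.36, 0.77 and 0.78 at P21, against 11.9, 20.4, 16.4, 5.06 and 10.7 at P0. Every P21 library was below every P0 library, with a log2 difference of -2.93 (SE 0.32, adjusted p = 6.51e-06) in HFD and -2.71 (SE 0.38, adjusted p = 0.00016) in chow offspring. Epha8, known in mice from the midbrain tectum, measured 0.95, 3.11, 1.63 and 3.46 units in HFD P21, against 10.5, 23.9, 26.9, 32.98 and 8.16 in HFD P0. Chow libraries held 0.59, 3.58 and 5.88 at P21, against 28.3, 39.5, 29.4, 15.8 and 18.3 at P0. The ages did not overlap in either diet group, and the differences were -2.61 (SE 0.41, adjusted p = 0.000145) in HFD and -2.81 (SE 0.44, adjusted p = 0.000303) in chow offspring.

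Epha7, a receptor with a truncated form that promotes adhesion in mice, measured 20.9, 14.4, 26.8 and 13.1 units in HFD P21 and 50.8, 62.8, 91.2, 80.5 and 76.8 in HFD P0. It measured 16.5, 20.9 and 21.7 in chow P21 and 77.1, 119, 81.1, 39.7 and 64.5 in chow P0. It fell in both, with differences of -1.92 (SE 0.24, adjusted p = 1.84e-05) in HFD and -1.83 (SE 0.28, adjusted p = 0.000276) in chow offspring. Epha5, a broadly neuronal EphA receptor, fell less. Its values were 39.9, 66.6, 64.1 and 60.6 units in HFD P21 and 92.04, 71.9, 89.2, 102 and 72.2 in HFD P0. In chow offspring they were 37.8, 54.2 and 64.5 at P21 and 99.04, 104, 83.9, 70.5 and 69.3 at P0. The differences were -0.57 (SE 0.19, adjusted p = 0.0202) in HFD and -0.71 (SE 0.20, adjusted p = 0.0157) in chow offspring. The Epha5 call was lost without HFD P0 replicate 4 or HFD P21 replicate 1 (-0.40 at the smallest) and, in chow offspring, without P21 replicate 1 (-0.50).

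The other EphA receptors gave no shared fall. Epha1, best known from epithelia, measured 0.84, 0.1, 0.07 and 0 units in HFD P21, against 4.22, 0.51, 2.82, 1.08 and 1.67 in HFD P0, and fell there by 1.20 on the log2 scale (adjusted p = 0.0162). A single HFD P21 library overlapped the P0 range, and 1 library was at 0. Chow libraries held 0, 2.37 and 1.38 units at P21 and 1.33, 0.92, 1.87, 1.99 and 2.16 at P0, a difference not past the threshold (-0.38, adjusted p = 0.483). Epha4, a receptor that binds ephrins of both classes, lay near 0 difference in both, with 95% intervals of -0.49 to 0.45 in HFD and -0.50 to 0.63 in chow offspring. Its levels ran between 38.4 and 77.2 units at P21 and between 32.4 and 77.1 units at P0. Epha6 and the kinase-inactive Epha10 were not past the threshold in either group, although Epha6 passed in HFD offspring without P0 replicate 5 or P21 replicate 3 (-0.83 at the largest) and when columns were rescaled to equal sums.

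Of the 5 EphB receptors, 4 fell in HFD offspring and 3 in chow offspring. Ephb1, a receptor of the optic chiasm in mice, was the highest Eph receptor per kb at P0. It measured 14.2, 31.03, 22.2 and 20.5 units in HFD P21, against 101, 112, 109, 129 and 87.7 in HFD P0. Chow libraries held 25.2, 28.6 and 50.2 units at P21, against 102, 109, 110.4, 94.2 and 103 at P0. Every P21 library lay below every P0 library, and the differences were -2.28 (SE 0.21, adjusted p = 1.35e-06) in HFD and -1.62 (SE 0.20, adjusted p = 6.56e-05) in chow offspring. Ephb2, which organises excitatory synapses through NMDA receptors, measured 9.4, 22.9, 10.6 and 22.8 units in HFD P21 and 48.1, 54.03, 49.9, 54.3 and 41.1 in HFD P0. It measured 14.3, 10.99 and 9.51 in chow P21 and 48.8, 67.1, 48.7, 61.4 and 74.5 in chow P0. The ages were again separate, with differences of -1.63 (SE 0.26, adjusted p = 0.000181) in HFD and -2.27 (SE 0.21, adjusted p = 6.29e-06) in chow offspring.

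Ephb3, which acts with Ephb2 in commissural axons in mice, measured 1.37, 3.11, 3.29 and 4.03 units in HFD P21 and 24.9, 7.2, 19.7, 18.2 and 10.4 in HFD P0. Chow libraries held 5.26, 5.45 and 7.08 at P21 and 17.4, 25.8, 20.4, 11.99 and 15.7 at P0. It fell in both, with differences of -2.05 (SE 0.36, adjusted p = 0.000356) in HFD and -1.44 (SE 0.27, adjusted p = 0.0013) in chow offspring. Ephb4, the venous endothelial receptor of ephrin-B2, measured 0.6, 0.43, 0.07 and 1.2 units in HFD P21, against 4.02, 7.16, 8.82, 12.9 and 6.06 in HFD P0. It fell there by 2.45 on the log2 scale (SE 0.34, adjusted p = 4.79e-05). In chow offspring Ephb4 measured 3.48, 4.74 and 3.08 units at P21 and 9.26, 6.57, 8.58, 5.62 and 5.08 at P0. Those ages did not overlap either, but the difference of -0.74 missed the threshold (adjusted p = 0.0661). Over the same libraries 11 endothelial and mural markers summed to 78.2 to 138 units in HFD P21, against 178 to 280 in HFD P0, with 7 of 11 falling and 1 rising. The chow sums of 156 to 220 at P21 and 172 to 272 at P0 overlapped, with 1 of 11 falling and 1 rising. The part of vessel content in the Ephb4 values was not tested. Ephb6, whose kinase domain is inactive, did not pass in either diet group, with intervals of -0.35 to 0.67 in HFD and -0.54 to 0.29 in chow offspring, though it passed in HFD offspring without P21 replicate 3 (0.45, adjusted p = 0.0464).

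Of the ephrin-A ligands, Efna2, Efna4 and Efna5 fell in both diet groups and Efna3 in HFD offspring. Efna2, which patterns visual maps together with Efna5 in mice, measured 3.26, 8.13, 6.38 and 7.75 units in HFD P21, against 37.4, 35.6, 30.4, 26.3 and 11.6 in HFD P0. It measured 11.99, 7.91 and 11.5 units in chow P21, against 52.8, 58.1, 26, 22.5 and 36.7 in chow P0. The ages did not overlap, and the differences were -1.95 (SE 0.34, adjusted p = 0.000361) in HFD and -1.74 (SE 0.31, adjusted p = 0.000834) in chow offspring. Efna5, the most abundant of the class, declined less steeply. It measured 61, 42.4, 62.2 and 50.4 units in HFD P21 and 66.99, 83.8, 59.1, 72.05 and 86.2 in HFD P0, with overlapping ages. Among chow libraries it was 45.3, 47.2 and 27.4 at P21 and 61.4, 82.3, 52.6, 81.4 and 93.6 at P0, without overlap. The differences were -0.44 (SE 0.18, adjusted p = 0.0491) in HFD and -0.89 (SE 0.23, adjusted p = 0.00907) in chow offspring. The HFD call of Efna5 held in 2 of 9 fits that each left out 1 library, with differences of -0.52 to -0.33, and the chow call was lost without P21 replicate 3 (-0.64).

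Efna4 was low and measured 0, 0.46, 0.07 and 0.33 units in HFD P21, against 3.5, 2.42, 2.6, 3.12 and 1.49 in HFD P0. It measured 0.74, 0.39 and 0.05 units in chow P21 and 1.94, 2.52, 1.13, 5.38 and 1.28 in chow P0. All P21 values were under 1 unit and all P0 values above it, with differences of -1.57 (SE 0.29, adjusted p = 0.000475) in HFD and -1.22 (SE 0.39, adjusted p = 0.0279) in chow offspring. The chow call was lost without P0 replicate 4, P21 replicate 2 or P21 replicate 3 (-0.96 at the smallest). Efna3 measured 15.4, 24.4, 8.68 and 17.1 units in HFD P21 and 36.4, 31.9, 34.1, 27.1 and 24.6 in HFD P0, which did not overlap (-0.94 (SE 0.26, adjusted p = 0.00839)). Its chow values of 16.4, 24.4 and 22.4 at P21 and 24.6, 31.9, 27.8, 27.5 and 18.2 at P0 overlapped (-0.29, adjusted p = 0.349). Efna1, a ligand prominent in vessels, was not past the threshold in either diet group, but its HFD result was close to it. It measured 4.88, 2.05, 2.14 and 2.5 units in HFD P21 and 6.88, 5.89, 9.65, 5.24 and 2.63 in HFD P0 (-0.83, adjusted p = 0.0552). It passed without HFD P0 replicate 5 (-1.05, adjusted p = 0.0106) or HFD P21 replicate 1 (-1.05). Efna1 also passed with a stricter filter, with columns rescaled to equal sums, with a replicate block and in a single fit of all libraries.

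The 3 ephrin-B ligands differed from each other. Efnb3 measured 206, 217, 106 and 279 units in HFD P21, against 308, 299, 293, 308 and 676 in HFD P0. In chow offspring it measured 226, 222 and 193 at P21, against 256, 321, 390.3, 535 and 489 at P0. Each P21 library was below each P0 library of its diet, with differences of -0.89 (SE 0.29, adjusted p = 0.0186) in HFD and -0.85 (SE 0.22, adjusted p = 0.00938) in chow offspring. The HFD call was lost without P21 replicate 3, the lowest library (-0.61), and the chow call without the chow libraries that stood apart (-0.77, adjusted p = 0.0757). Efnb2, the arterial ligand of EphB4 that also acts at synapses, fell in chow offspring, where it measured 28.96, 10.1 and 7.12 units at P21 and 25.5, 39.2, 21.1, 27.1 and 23.5 at P0. The ages overlapped there, and the difference of -0.99 (SE 0.36, adjusted p = 0.0491) kept its call in 1 of 8 fits that each left out 1 library, with a range of -1.54 to -0.60. In HFD offspring Efnb2 measured 12.7, 25.6, 9.33 and 27.3 units at P21 and 11.5, 29.8, 14.7, 17.9 and 7.05 at P0 (0.21, adjusted p = 0.672). Efnb1 encodes ephrin-B1, whose loss from Pomc-lineage cells in mice is known to alter their glutamatergic input. It measured 43.99, 47, 21.4 and 45.01 units in HFD P21 and 33.5, 32.7, 27.7, 32.4 and 64.04 in HFD P0. It measured 30, 44.4 and 23.2 in chow P21 and 30.4, 39.7, 39.5, 51.8 and 53.1 in chow P0. The ages overlapped in both, with intervals of -0.55 to 0.64 in HFD and -0.93 to 0.11 in chow offspring.

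In the Slit and Robo system, 1 of the 3 ligands and both main neuronal receptors fell in both diet groups. Slit2, a midline repellent, measured 18.1, 13.5, 19.03 and 15.8 units in HFD P21, against 63.5, 40.3, 25.8, 33.5 and 33.3 in HFD P0. The chow values were 13.1, 13.8 and 13.4 at P21, against 25.1, 24.8, 28.5, 24.9 and 18.8 at P0. The ages were separate, with differences of -1.14 (SE 0.25, adjusted p = 0.00163) in HFD and -0.81 (SE 0.21, adjusted p = 0.00809) in chow offspring. The chow call was lost without the libraries that stood apart (-0.75, adjusted p = 0.0543). Slit1 and Slit3 were not past the threshold. For Slit1, the Slit most confined to the nervous system, the differences were 0.62 in HFD and 0.34 in chow offspring, with intervals of -0.16 to 1.39 in HFD and -0.26 to 0.94 in chow offspring. In HFD offspring Slit1 passed without P0 replicate 5 (0.91). Robo1, a Slit receptor, measured 16.9, 14.7, 15.7 and 10.98 units in HFD P21 and 31.6, 66.4, 49.8, 51.8 and 45 in HFD P0. It measured 10.5, 19.3 and 28.4 in chow P21 and 42.3, 55.5, 62.7, 40.6 and 43.8 in chow P0. Robo2, its close relative, measured 19.8, 21.2, 20.4 and 17.8 units in HFD P21 and 49.1, 63.1, 72.3, 62.2 and 93.5 in HFD P0. It measured 15.7, 26.1 and 18.2 in chow P21 and 68.2, 73.3, 60.2, 65.98 and 78.6 in chow P0. Both receptors were lower in every P21 library than in any P0 library. The Robo1 differences were -1.66 (SE 0.23, adjusted p = 4.5e-05) in HFD and -1.37 (SE 0.27, adjusted p = 0.00183) in chow offspring, and those of Robo2 were -1.70 (SE 0.20, adjusted p = 9.62e-06) in HFD and -1.77 (SE 0.19, adjusted p = 1.99e-05) in chow offspring.

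Robo3 and Robo4 fell in HFD offspring. Robo3, which in mammals lets commissural axons cross the midline and does not bind Slits, measured 0, 0, 0 and 0.83 units in HFD P21, against 0.4, 4.03, 3.68, 1.76 and 2.6 in HFD P0. It was at 0 in 3 of the 4 P21 libraries, and the difference was -1.45 (SE 0.39, adjusted p = 0.00659). Chow values of 0.68, 0.08 and 2.07 units at P21 and 0.78, 2.68, 5.81, 1.51 and 1.08 at P0 overlapped (-0.75, adjusted p = 0.239). Robo4, the endothelial member, measured 0.7, 2.74, 1.66 and 2.1 units in HFD P21, against 10.98, 2.03, 11.8, 17.2 and 5.76 in HFD P0. The ages overlapped, and the difference was -1.73 (SE 0.46, adjusted p = 0.00606). The chow values were 2.86, 6.17 and 2.9 units at P21 and 4.53, 4.2, 9.42, 4.22 and 3.12 at P0 (-0.28, adjusted p = 0.576). The endothelial marker sums given with Ephb4 apply to these libraries too.

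Among netrins, Ntn1 fell and Ntn3 did not. Ntn1, the founding netrin, measured 7.86, 5.95, 2.75 and 5.56 units in HFD P21, against 34.02, 46.7, 24.3, 26.5 and 12.6 in HFD P0. In chow offspring it measured 6.52, 6.64 and 6.02 at P21, against 21.7, 28.03, 31.4, 19.4 and 17.2 at P0. No P21 library reached the lowest P0 library, and the differences were -2.14 (SE 0.35, adjusted p = 0.000201) in HFD and -1.70 (SE 0.25, adjusted p = 0.000199) in chow offspring. Ntn3, a secreted netrin that also binds DCC and UNC5 receptors, was the gene that rose in chow offspring. It measured 26.5, 27.5 and 16.3 units at P21, against 11.8, 12.97, 18.2, 10.9 and 13.7 at P0, with overlapping ages and a difference of 0.74 (SE 0.25, adjusted p = 0.0365). That call was lost in 5 of 8 fits that each left out 1 library, namely P0 replicates 1, 4 and 5 and P21 replicates 1 and 2 (0.61 to 0.97). In HFD offspring Ntn3 measured 24.2, 24.5, 11.8 and 32.5 units at P21 and 7.48, 15.6, 7.71, 26.8 and 10.4 at P0 (0.80, adjusted p = 0.0831), and it passed there without P0 replicate 4 or P21 replicate 3 (1.08 in each) and in a single fit of all libraries. Ntn4, a basement-membrane netrin, was not past the threshold.

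Dcc fell while the Unc5 receptors did not. Dcc, the attractive netrin receptor, measured 6.66, 10.1, 14.4 and 5.12 units in HFD P21, against 30.6, 35.3, 29.7, 26.5 and 32.6 in HFD P0. It measured 9.71, 9.15 and 9.6 units in chow P21, against 38.2, 34.8, 24.3, 26.8 and 20.3 in chow P0. The ages were separate, with differences of -1.75 (SE 0.27, adjusted p = 0.000108) in HFD and -1.47 (SE 0.24, adjusted p = 0.000421) in chow offspring. Unc5a, a repulsive netrin receptor, rose in HFD offspring. It measured 38.8, 67.95, 29.7 and 68.03 units in HFD P21 and 29.3, 30.3, 23.4, 29.4 and 25.4 in HFD P0, with overlap at 1 library. The difference of 0.79 (SE 0.24, adjusted p = 0.0154) lost its call without P21 replicate 2 or 4 (0.62 at the smallest) and when columns were rescaled to equal sums. In chow offspring Unc5a measured 50.04, 52.8 and 37.04 units at P21 and 39.5, 43.3, 44.5, 51.8 and 36.04 at P0 (0.11, interval -0.29 to 0.50). Unc5b, Unc5c and Unc5d did not pass in either diet group, although Unc5d passed in HFD offspring without P0 replicate 5 (0.56), and whether Dcc and the Unc5 genes differ in their change was not tested.

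Ntng1 encodes netrin-G1, a membrane-anchored relative that does not bind DCC and pairs with the postsynaptic partner Lrrc4c. It measured 23.6, 24.8, 33.9 and 28.7 units in HFD P21, against 79.7, 89.5, 92.3, 90.7 and 81.5 in HFD P0. In chow offspring it measured 26.6, 39.3 and 68.3 at P21, against 109, 62.6, 80.96, 52.8 and 79 at P0, with P21 replicate 3 inside the P0 range. The differences were -1.62 (SE 0.16, adjusted p = 2.74e-06) in HFD and -0.83 (SE 0.29, adjusted p = 0.0376) in chow offspring. The chow call was lost in 5 of 8 fits that each left out 1 library (P0 replicates 1, 3 and 5, P21 replicates 1 and 2), with a range of -1.18 to -0.52. Ntng2 was low in every library and was not past the threshold.

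Draxin showed the steepest fall of the set. This secreted antagonist of netrin and DCC measured 0.32, 0.03, 0 and 0.13 units in HFD P21 libraries, against 7.76, 21.4, 12.2, 12.1 and 7.75 in HFD P0. In chow offspring it measured 0.3, 0.39 and 1.06 units at P21, against 11.2, 20.8, 11.03, 10.04 and 6.53 at P0. In HFD P21 libraries the value was 0 in 1 library and within the worth of 3 reads in another, and no P21 library of either diet came near the lowest P0 library. The differences were -3.48 (SE 0.32, adjusted p = 1.32e-06) in HFD and -2.97 (SE 0.35, adjusted p = 4.45e-05) in chow offspring.

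**Figure D3:**
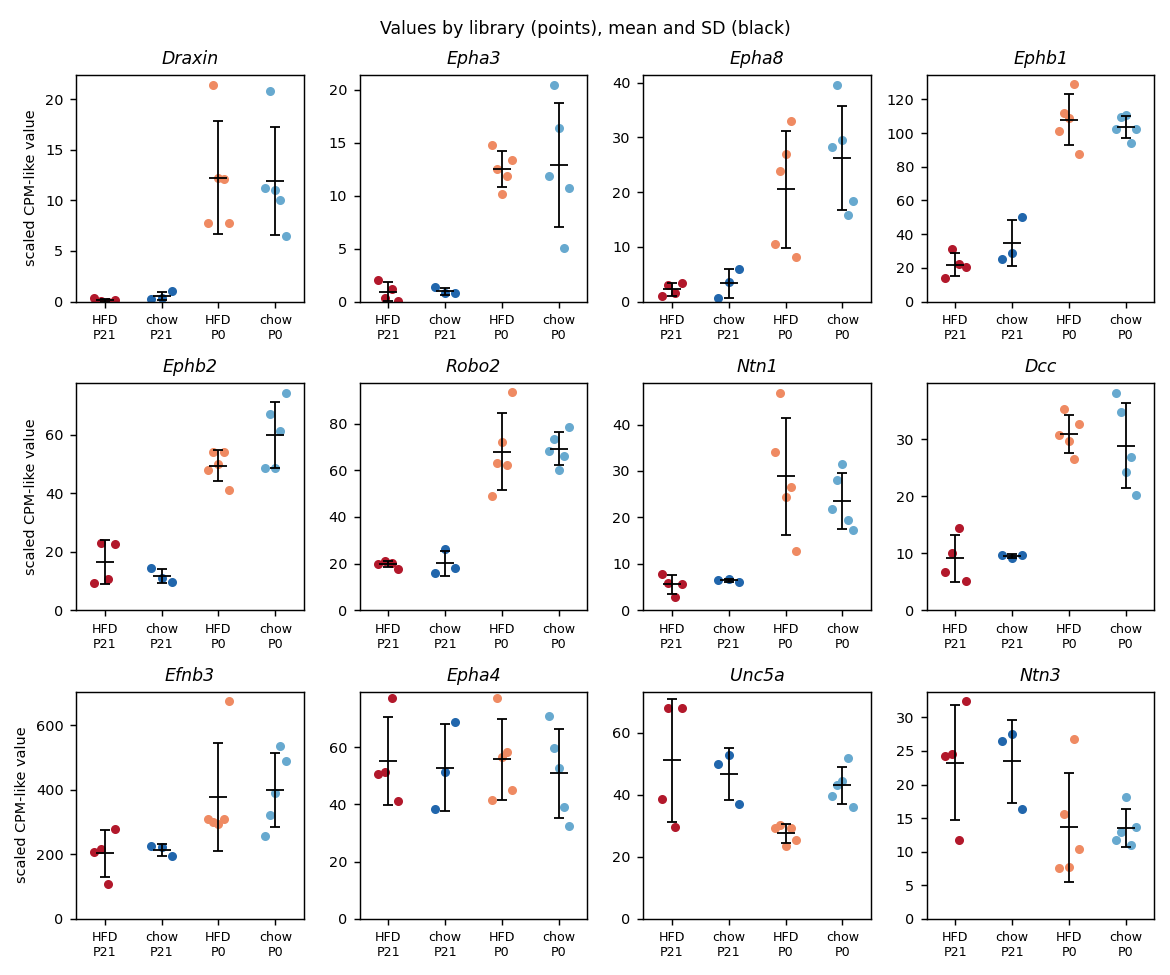
Values of 12 guidance genes in each library (points, scaled CPM-like units) with the group mean and SD (black), for HFD P21, chow P21, HFD P0 and chow P0. Draxin, Epha3, Epha8, Ephb1, Ephb2, Robo2, Ntn1, Dcc and Efnb3 show P21 libraries wholly below P0 libraries of the same diet, while the ages overlap for Epha4, Unc5a and Ntn3.

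Genes that act with these receptors moved in both directions with age. Of 50 pathway partners, 21 fell and 7 rose in HFD offspring, where 26.2% of all genes tested fell and 24.7% rose. In chow offspring 16 of them fell and 8 rose, where 17.7% of all genes tested fell and 18.3% rose. Trim67, a brain ubiquitin ligase that binds DCC, fell most, measuring 2.91, 4.03, 1.25 and 4.32 units in HFD P21 and 189, 161, 174, 176 and 176 in HFD P0. Chow libraries held 2.54, 8.24 and 4.04 at P21 and 139, 165, 163, 164 and 165 at P0. The log2 differences were -5.49 (SE 0.24, adjusted p = 1.73e-09) in HFD and -4.87 (SE 0.25, adjusted p = 1.29e-07) in chow offspring (limma). Neo1, the DCC paralogue neogenin, fell in both, with differences of -1.16 (SE 0.24, adjusted p = 0.00104) in HFD and -1.19 (SE 0.16, adjusted p = 8.61e-05) in chow offspring. Rgma, a neogenin ligand, also fell in both, with differences of -2.59 (SE 0.25, adjusted p = 2.45e-06) in HFD and -1.53 (SE 0.29, adjusted p = 0.00116) in chow offspring. Chn1, the Rac GTPase-activating protein chimaerin that acts downstream of EphA4, rose by 2.58 (SE 0.14, adjusted p = 1.73e-08) in HFD and 1.54 (SE 0.20, adjusted p = 9.7e-05) in chow offspring. Sdcbp, the syntenin scaffold that binds ephrin-B tails, rose by 2.76 (SE 0.17, adjusted p = 5.64e-08) in HFD and 2.00 (SE 0.23, adjusted p = 3.96e-05) in chow offspring.

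At birth, the effect of the dam's diet was read from HFD against chow libraries at P0. None of the 39 genes passed the threshold, where 0.291% of all genes tested did (41 of 14086, limma). At an unadjusted p under 0.05 there were 6 of the 39, and 1307 of all 14086 tested. The edgeR test on 2 HFD and 3 chow libraries with recovered reads called 0 of the 39, where it called 3 of all 15139 genes tested. With so few calls over all genes, that count says little about the 39. Unc5a had the smallest p. It measured 29.3, 30.3, 23.4, 29.4 and 25.4 units in HFD and 39.5, 43.3, 44.5, 51.8 and 36.04 units in chow libraries, and was the 1 gene of the set whose HFD libraries lay wholly below the chow libraries, where 1.71% of all genes did so. None lay wholly above, where 0.738% of all genes did. The log2 difference was -0.62 (SE 0.16, unadjusted p = 0.00151, adjusted p = 0.148 by limma). Promoter letters of Unc5a are given above.

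The next genes in order had overlapping diets. Epha10 measured 9.45, 4.49, 5.46, 7.53 and 4.33 units in HFD and 21.5, 15.98, 8.81, 10.4 and 12.2 units in chow libraries (-1.01, adjusted p = 0.219). Slit2 measured 63.5, 40.3, 25.8, 33.5 and 33.3 in HFD and 25.1, 24.8, 28.5, 24.9 and 18.8 in chow libraries (0.61, adjusted p = 0.381). Unc5c, another repulsive netrin receptor, measured 32.5, 38.1, 24.7, 33.7 and 18.5 in HFD and 24.1, 20.5, 16.8, 16.6 and 15.9 in chow libraries (0.60, adjusted p = 0.381). Values of Efnb2 and Epha6 differed by -0.83 and 0.70 (adjusted p = 0.387 and 0.47). For genes with steady replicates the interval was narrow: Ephb1 had -0.24 to 0.33, Epha5 -0.34 to 0.36 and Robo2 -0.41 to 0.31 on the log2 scale. For Unc5b and Robo4 it was wide, at -1.09 to 0.55 and -0.28 to 1.54, so these libraries are compatible with differences over those ranges. The 4 newborn libraries with the most Pomc were HFD replicate 5 and chow replicates 3, 4 and 5. Unc5c lay wholly lower in them, as did 6.76% of all genes. By diet, 7 of 10 POMC-neuron markers were below 0 and 5 of 5 fibroblast and meningeal markers above 0, with none past the threshold. The part of Pomc level in these diet differences was not tested.

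At P21 the same comparison tested 34 of the 39 genes. Epha1, Efna4, Robo3, Ntng2 and Draxin were above 1 unit in too few libraries. None of the 34 passed, where 0.178% of all genes tested did (25 of 14070, limma). At an unadjusted p under 0.05 there were 4 of the 34, and 2393 of all 14070 tested. HFD libraries lay wholly below chow libraries for 3 genes (Ephb3, Ephb4 and Robo4) and wholly above for Unc5d, where 7.78% and 8.34% of all genes did so.

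Ephb4 had the smallest p at P21. It measured 0.6, 0.43, 0.07 and 1.2 units in HFD and 3.48, 4.74 and 3.08 units in chow libraries, a log2 difference of -1.63 (SE 0.35, unadjusted p = 0.000589, adjusted p = 0.0792 by limma). Robo4, the other vessel receptor, measured 0.7, 2.74, 1.66 and 2.1 units in HFD and 2.86, 6.17 and 2.9 in chow libraries (-0.82, adjusted p = 0.297). The 11 endothelial and mural markers summed to 78.2 to 138 units in HFD and 156 to 220 units in chow libraries, and all 11 differences were below 0 with none past the threshold. The same direction was seen for other non-neuronal lists, with 11 of 11 oligodendrocyte-lineage, 9 of 9 microglial, 5 of 5 fibroblast and meningeal and 9 of 10 astrocyte, radial glia and tanycyte markers below 0. Of the 10 POMC-neuron markers 8 were above 0, and 1 passed the threshold. The part of these markers in the Ephb4 and Robo4 values was not tested. Ephb3 measured 1.37, 3.11, 3.29 and 4.03 units in HFD and 5.26, 5.45 and 7.08 in chow libraries (-0.85, adjusted p = 0.229). Unc5d measured 51.4, 45.6, 48.5 and 58.02 units in HFD and 40.7, 45.1 and 22.8 in chow libraries (0.53, adjusted p = 0.269). Efna1 differed by -0.78 (adjusted p = 0.271). The interval for Efnb3 was -0.72 to 0.40, for Dcc -0.87 to 0.57 and for Robo2 -0.49 to 0.51.

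**Figure D4:**
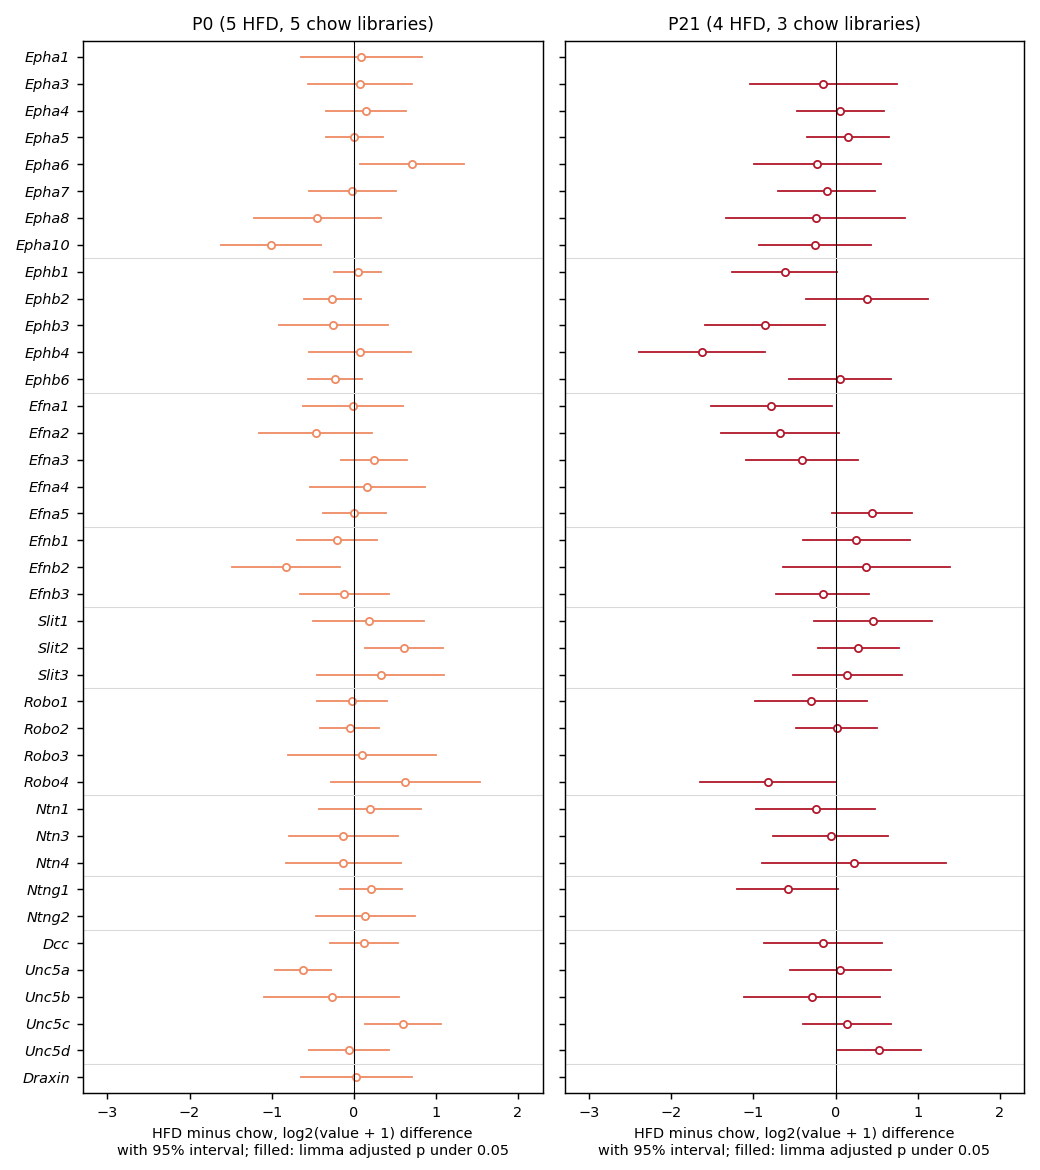
HFD minus chow difference on the log2(value + 1) scale for each guidance gene, with its 95% interval, at P0 (left) and P21 (right). All points are open, since none passed an adjusted p of 0.05; Unc5a lies farthest from 0 relative to its error at P0 (-0.62) and Ephb4 at P21 (-1.63), and 5 genes have no point at P21.

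The interaction asks whether the diet difference at P21 differs from that at P0, and was fitted over all 17 libraries. None of the 39 genes passed, where 0.0266% of all genes tested did (4 of 15037, limma), and 5 of the 39 had an unadjusted p under 0.05, as did 2290 of all 15037 tested. Ephb4 came closest at -1.71 (SE 0.45, adjusted p = 0.102). Ntng1, Robo4, Ephb1 and Unc5a followed, with -0.79, -1.45, -0.67 and 0.68 (adjusted p = 0.267, 0.28, 0.302 and 0.317). Without HFD P0 replicate 5, Ephb4 passed (-1.77, adjusted p = 0.0409), as the sole gene of the 39, where 557 of all genes tested did. The 5 genes that fell past the threshold in HFD offspring alone and Efnb2, which did so in chow offspring alone, are therefore not shown to differ between diets. Of the 50 pathway partners, 0 passed in either diet comparison or in the interaction, where 6, 13 and 11 had an unadjusted p under 0.05 at P0, at P21 and in the interaction.

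Newborn libraries differed widely in Pomc, and the guidance genes were set against it. In order of rising Pomc, Efnb3 measured 308, 293, 256, 308, 321, 299, 390.3, 535, 676 and 489 units. The 4 libraries with the most Pomc (HFD P0 replicate 5 and chow P0 replicates 3, 4 and 5) had the 4 highest Efnb3 values. Of the 39 genes 2 (Efnb3 and Ephb6) lay wholly higher in those 4 libraries and 2 (Slit3 and Unc5c) wholly lower, where 9.58% of all 14086 genes lay wholly higher and 6.76% wholly lower, and neither count is above that background. Pomc fell into separate clusters, with 6 libraries at 90.7 to 246 units and 4 at 657 to 1308, so no correlation over all 10 is given. Within the 6 libraries of lower Pomc, the correlation of Efnb3 with Pomc was r = 0.19 (exact permutation p = 0.75, adjusted 0.86 over the 39 genes) and rho = 0.14 (exact permutation p = 0.80, adjusted 0.89). Without the 2 libraries farthest from the median Pomc it was r = 0.76. Across the 39 genes no correlation within those 6 passed the adjustment. Efnb1 values in the same order were 33.5, 27.7, 30.4, 32.4, 39.7, 32.7, 39.5, 51.8, 64.0 and 53.1 units, and overlapped.

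**Figure D5:**
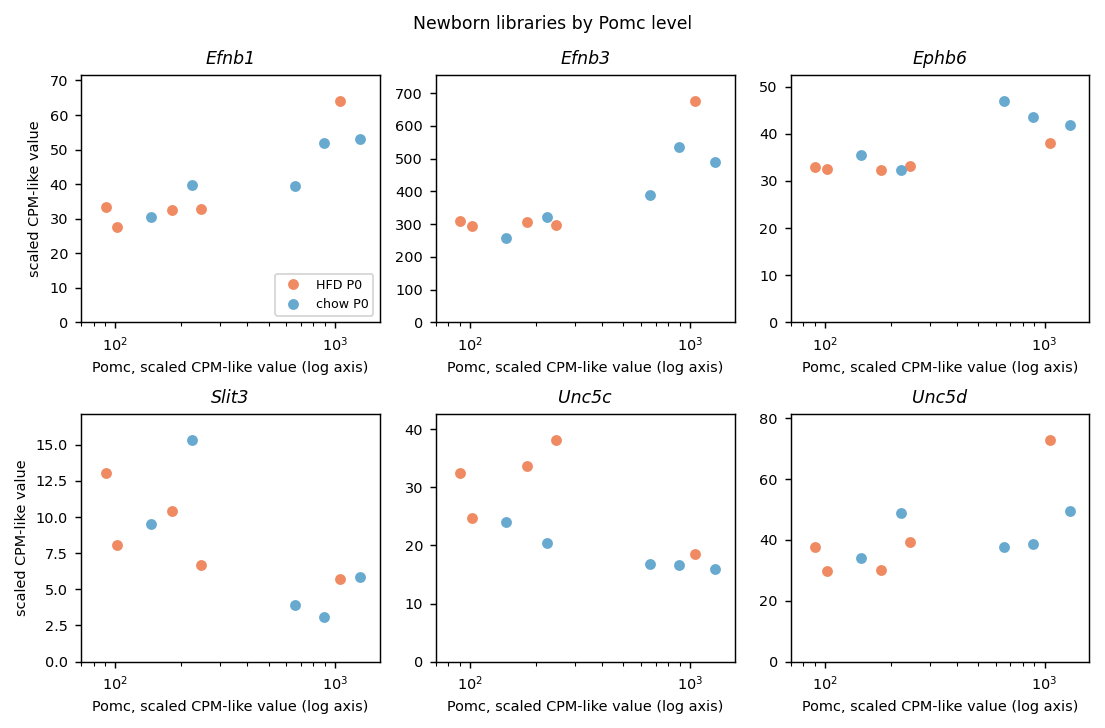
Values of 6 guidance genes in the 10 newborn libraries (scaled CPM-like units) against Pomc in the same library (log axis), by the dam's diet. Efnb3 and Ephb6 are highest in the 4 libraries with Pomc of 657 units or more, and Slit3 and Unc5c are lowest there, a separation that 9.58% and 6.76% of all genes show in these directions.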

How the data were processed

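Per the labels' protocols, RNA bound to HA-tagged ribosomes was pulled down from the mediobasal hypothalamus, made into Nextera XT libraries and read once from each fragment for 50 bases. The build was mm10 and the aligner TopHat2 2.0.13, with HTSeq 0.6.1, Picard 1.80, edgeR and FastQC also listed, per the submitters' processing notes. A strand setting for the counting is not given in the sources used here. From this the authors deposited 1 table of normalized signal for 17 libraries: scaled CPM-like values with 2 decimals, column sums 0.908 to 1.105 M, in which at least 99.97% of non-zero values were whole multiples of 1 read (within 0.005 units). Its other 15 value columns are empty.

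The 39 genes were matched by symbol, and all 39 to GENCODE M21 (GRCm38) for exon lengths and overlaps. Genes were tested if the number of libraries above 1 unit reached the size of the smaller group. Differences are of log2(value + 1), fitted with limma 3.58.1 (R 4.3.3, intensity trend, two-sided) on each comparison's own libraries and, for the interaction, on all 17, with Benjamini-Hochberg adjustment over all genes at 0.05. A count test had been foreseen and, since the values are not counts, edgeR 4.0.16 (quasi-likelihood) was run only on whole reads recovered in 6 libraries. The fit was tested on simulated data. Every one of the 39 genes is named; those past the threshold in any comparison have all library values printed. The partner and marker lists hold genes known to act with the 39 or to mark other cells. The members and lists were chosen with earlier results of these data known. Of 5 anterior pituitary markers, Prl, Gh and Tshb had no match by symbol in the deposited table and were not analysed here. The other 2 (Pitx1 and Cga) summed to 10.4 to 45.8 units in HFD P21, 9.14 to 33.8 in chow P21, 0.03 to 3.36 in HFD P0 and 0 to 2.42 in chow P0. Replicates within a group correlated at 0.911 to 0.980, and no 2 columns were identical.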

Additional observations from a re-analysis of the deposited data

Results flagged for a closer look

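Single libraries stood apart from the rest of their group for 9 of 117 sets of 4 or 5 values examined, by a test of the gap to the nearest library that flags about 1 in 20 sets by chance. HFD P0 replicate 5, which also had the most Pomc of its group, was the high library for 4 genes. Efnb1 was 64.0 units there, against 27.7 to 33.5 in the other 4, and Efnb3 was 676 units, against 293 to 308. Ephb6 was 38.0 units there, against 32.2 to 33.1, and Unc5d was 72.7 units, against 29.7 to 39.5. In chow P0 replicate 3, Robo4, the vessel receptor, was 9.42 units, against 3.12 to 4.53 in the others. HFD P21 replicate 1 was high for Efna1, at 4.88 units against 2.05 to 2.50, and for Epha1, at 0.84 units against 0 to 0.10. HFD P21 replicate 3 was low for Efnb1, at 21.4 units against 44.0 to 47.0. HFD P21 replicate 4 held 0.83 units of Robo3, which was 0 in the other 3.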

How the results depend on the processing

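The number of guidance genes past the threshold was 0 in the diet comparison at P0 and at P21 under every alternative run. Leaving out 1 library at a time gave 0 to 0 genes at P0, 0 to 0 at P21, 21 to 26 for age in HFD offspring (24 with all libraries), 16 to 19 for age in chow offspring (20) and 0 to 1 in the interaction (0). Under the other alternatives of pseudocount, filter, scaling, prior and a single fit of all libraries, the counts were 23 to 25 in HFD and 18 to 20 in chow offspring. Shares over all genes in the alternative age fits are not given here. Labels share replicate numbers across groups, and at P0 replicates 1, 2 and 5 correlated best with their own number (0.187, 0.284 and 0.504) while replicates 3 and 4 did not (-0.0432 and -0.176), so the numbers were not taken to pair the libraries; a replicate block gave 0 at P0, 0 at P21, 27 in HFD, 17 in chow offspring and 0 in the interaction. edgeR on recovered reads in chow offspring had 1 P21 library, assumed to vary like the others, against 3 at P0. That library was chow P21 replicate 3, one of those that stood apart. A single library shows no spread, so no count of calls is given for this fit. The log2 differences there were -2.83 for Ephb2, -1.995 for Robo2 and -1.64 for Efna5. Those of Epha4, Epha6, Ephb6, Ntn3, Ntng1, Robo3, Unc5b and Unc5c were above 0. In that fit the Ntng1 difference was 0.0785, where limma on all chow libraries gave a fall (-0.83). Ntng1 measured 68.3 units in that P21 library, against 62.6, 52.8 and 79 units in those P0 libraries. The part of the choice of libraries was not tested separately. edgeR was not run for HFD P21 libraries, since none met the rule set for recovering reads. The rule asked that 95% of low values lie within 0.1 read of a whole number, and 64.4 to 78.3% did so there. It does not show that whole reads cannot be derived from those libraries. Alternative values were compared for medians, all-gene counts and genes of the set with an unadjusted limma p under 0.05. Of 1428 such values, 1310 stayed the same, 69 lost and 16 gained a call, 32 moved and 1 reversed. For a gene, the same means its direction and side of the threshold. For a count it means a fixed ratio, and for a median the spread among libraries. Uncalled genes changed direction in some alternative for 20 of 39 at P0 and 18 of 34 at P21. The same held for 6 of 15 in HFD and 13 of 19 in chow offspring with age, and 13 of 39 in the interaction. All genes called at P0 numbered 18 to 135 over leaving out 1 library (41 with all), at P21 3 (without HFD replicate 1) to 51 (without chow replicate 1; 25 with all), and in the interaction 2 to 557 (4). Of the genes called with all libraries, 20 of 24 in HFD and 14 of 20 in chow offspring kept their call in every such fit that tested them. Rescaling columns to equal sums moved the median of all genes by -0.16 (log2) in the HFD age comparison; it changed the Unc5a call there. The removal of the 3 libraries that stood apart was added after seeing the data. Depth limits Draxin, Epha1, Robo3 and Efna4 at P21, where their values of 0 allow up to 0.0886 to 0.105 units in the libraries concerned. Ntng2 was low at P21, at 0.32 to 1.47 units, but not at 0 in any library.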
